A study of Mus musculus with 2 samples.

Results

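The miR-148 and miR-152 family of microRNAs (miRNAs) was examined in mouse liver. The tissue was from wild-type animals of the C57BL/6 strain, 2 to 3 months old and fed ad libitum. Its members were taken by name, as every listed miRNA called miR-148a, miR-148b or miR-152. This gave 3 arms among the 197 named miRNAs of the series: mmu-miR-148a-3p and mmu-miR-148a-5p in both libraries, and mmu-miR-152-5p in replicate 2 only. The series holds 1 group of 2 replicate small RNA libraries, with no treated, mutant or fasted group, so levels are described and no condition was compared. The labels do not tie the replicates to separate mice, and SDs here measure the spread of these libraries, which may be technical. Except in edgeR's exact test, p-values here weigh differences against counting error only, and none reaches beyond these libraries. Whole liver mixes hepatocytes with other cells, and in such tissue fewer cells of a type and less RNA per cell cannot be told apart.

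A miRNA is cut from a hairpin precursor as a short duplex, and 1 strand of it, the 5p or the 3p arm, usually stays in the Argonaute protein while the other is lost. The bases at positions 2 to 8 from the 5′ end form the seed, which does most of the pairing with target messenger RNAs. The 3p arms of Mir148a, Mir148b and Mir152 share a seed and are treated as a family. miR-148a-3p is known as a liver miRNA of hepatocytes. Reported targets of the 3p arms include Dnmt1, the maintenance DNA methyltransferase.

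The mature sequences below show what the family shares and where the deposited arms start. They are from RefSeq (GRCm38.p6), 5′ to 3′, with the seed in capitals. RefSeq holds 6 arms of the 3 hairpins, and 3 of them were not listed in either library (miR-148b-5p, miR-148b-3p and miR-152-3p).
miR-148a-3p: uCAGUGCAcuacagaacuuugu
miR-148b-3p: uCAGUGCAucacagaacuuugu
miR-152-3p: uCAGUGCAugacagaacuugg
miR-148a-5p: aAAGUUCUgagacacuccgacu
miR-148b-5p: gAAGUUCUguuauacacucaggcu
miR-152-5p: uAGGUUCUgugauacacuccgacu

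The seed CAGUGCA was held by the 3p arms of the family and by no other of the 1679 mature mouse names in the RefSeq table. miR-148a-3p was thus the one listed carrier of that seed in both libraries. Outside the seed the 3p arms differ little. Counting from 1 at the 5′ end of the first-named arm, miR-148b-3p differs from miR-148a-3p by C9U and U10C, with 20 of 22 bases identical. miR-152-3p differs from miR-148a-3p by C9U, U10G and U20G over the 21 bases compared. The 5p arms form a looser group. The annotated miR-148a-5p and miR-148b-5p share the seed AAGUUCU, while miR-152-5p has AGGUUCU. miR-148a-5p and miR-152-5p have in common the run ACACUCCGACU, 11 bases long, at their 3′ ends.

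The deposited miR-148a-5p was shorter than the annotated arm, and the same sequence was listed in both libraries. It is shown here with its own seed in capitals.
listed miR-148a-5p: gUUCUGAGacacuccgacu
It had 19 bases against 22 in RefSeq, began 3 bases downstream of the annotated 5′ end and ended at the annotated 3′ end. Counted from this start, bases 2 to 8 read UUCUGAG, a seed that no mature mouse miRNA in the RefSeq table has. miR-148a-3p and miR-152-5p were listed with exactly their RefSeq sequences. The rule that set the ends of listed arms was not given in the sources used here.

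Such a start was uncommon among the arms whose start could be compared. Of the 144 named arms of replicate 1 that matched a RefSeq arm by name and position, 129 began at the RefSeq 5′ end (89.6%) and 2 began 3 bases or more downstream. In replicate 2 the numbers were 143 of 160 (89.4%) and 3. The other arms with a start 3 bases downstream were miR-350-5p in both libraries and miR-434-3p in replicate 2. Among matched arms with at least 100 counts, miR-148a-5p was the 1 arm starting 3 bases or more downstream in each library. Its counts were 123 and 210, while miR-350-5p had 26 and 56. Replicate 1 had 168 named loci and replicate 2 had 187, and those without a match had no measured start. Abundant arms were among these, such as miR-30d-5p (13695 counts in replicate 1) and miR-122-5p (7668).

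**Figure D1:**
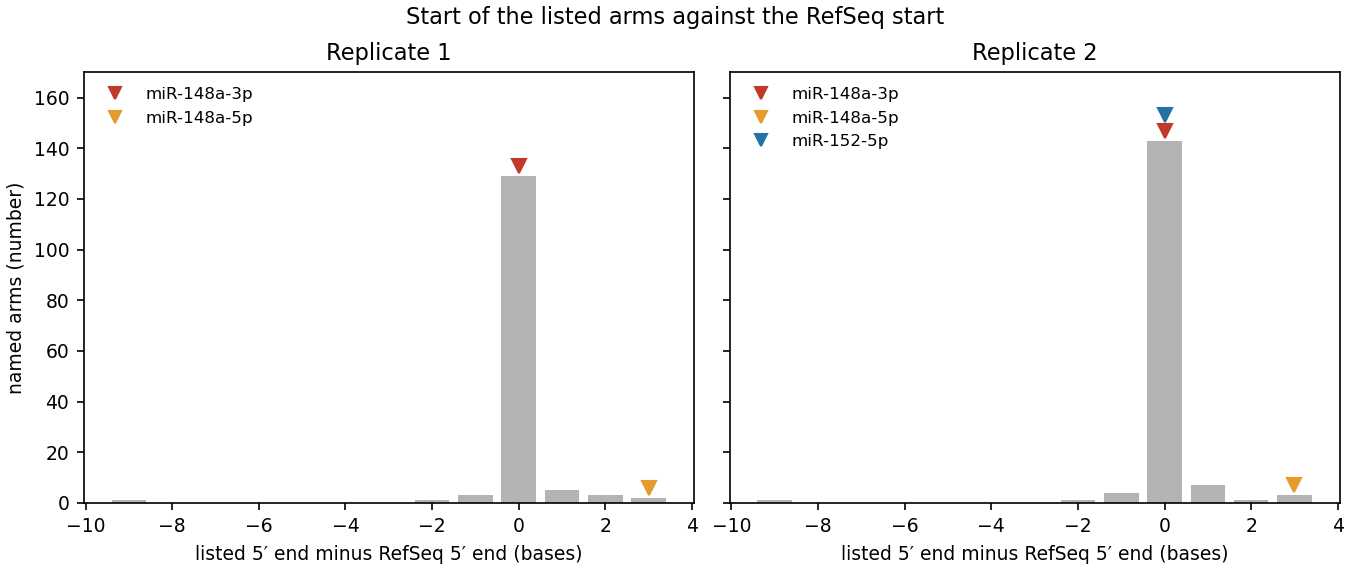
Number of named arms (vertical axis) by the distance in bases of their listed 5′ end from the RefSeq 5′ end (horizontal axis, positive is downstream), for replicate 1 (144 arms) and replicate 2 (160 arms). Only arms matched to a RefSeq arm are counted, and triangles mark the family's arms. miR-148a-3p and, in replicate 2, miR-152-5p stand at 0, and miR-148a-5p stands at 3 in both.

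The hairpins show how the listed arms lie in their precursors. They are RefSeq sequences (GRCm38.p6), with the arms listed in the deposited files in capitals.
Mir148a: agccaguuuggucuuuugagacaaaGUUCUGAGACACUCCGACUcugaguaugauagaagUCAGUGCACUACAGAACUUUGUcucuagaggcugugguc
Mir152: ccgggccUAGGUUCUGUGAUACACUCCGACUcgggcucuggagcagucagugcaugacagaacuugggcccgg
The 2 arms of Mir148a lie on opposite sides of its stem, while Mir152 was listed by its 5p side alone. Each listed sequence occurred in 1 RefSeq mouse hairpin only, its own. In the folds deposited with the loci, 19 of 22 bases of miR-148a-3p were paired, 16 of 19 of miR-148a-5p and 20 of 24 of miR-152-5p. As shares these are 86.4%, 84.2% and 83.3%, close to the median arm (82.6% in replicate 1 and 83.3% in replicate 2). Within the seed, 5 of 7 bases of miR-148a-3p were paired, against 7 of 7 in miR-148a-5p and miR-152-5p and a median of 6 over all arms.

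The 3 hairpin genes lie on different chromosomes of GRCm38. Mir148a is at chr6:51269812-51269910, minus strand, outside any other annotated gene in GENCODE M21, as the deposited annotation also has it. The listed miR-148a-3p covers chr6:51269829-51269850 and miR-148a-5p chr6:51269867-51269885. The nearest gene is the long non-coding Gm32479, 13.6 kb away on the same strand, and the nearest protein-coding gene is Nfe2l3, 163 kb away. Mir152 is at chr11:96850393-96850465, plus strand, in intron 1 of Copz2, on the strand of that gene. The intron is 676 bases long, and miR-152-5p covers chr11:96850400-96850423. Mir148b, at chr15:103285125-103285221 on the plus strand, lies in intron 1 of Copz1, an intron of 16159 bases, also on the strand of its host. Copz1 and Copz2 encode zeta subunits of the COPI coat, which forms vesicles that return from the Golgi.

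The loci have related neighbours as well as related hosts. Each lies near a gene of the NF-E2 transcription factor family, Nfe2l3 at Mir148a, Nfe2l1 at Mir152 (20.4 kb) and Nfe2 at Mir148b (26.7 kb). Each also lies near a gene for a heterochromatin protein 1, Cbx3 at Mir148a (200.4 kb), Cbx1 at Mir152 (41.8 kb) and Cbx5 at Mir148b (45.3 kb). Hnrnpa2b1 and Hnrnpa1, which encode related RNA-binding proteins, lie near Mir148a (191 kb) and Mir148b (38.4 kb). Of these 3 related regions, the one without a COPI host gene held nearly all listed counts of the family, and the one with Copz1 had no listed arm.

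miR-148a-3p was by far the most counted arm of the family. Replicate 1 gave 1413 counts, or 0.461% of the counts of named miRNAs (95% interval 0.438 to 0.486). Replicate 2 gave 2481, or 0.461% (0.443 to 0.480). These exact Clopper-Pearson intervals cover counting error only, since reads made by PCR without molecular identifiers are not independent molecules. The named miRNAs, 1 locus per name, held 306351 counts in replicate 1 and 538023 in replicate 2. The mean share was 0.461% ± 7.28e-05 (SD, n = 2), and the arm ranked 25 in replicate 1 and 23 in replicate 2. The shares of the libraries thus differed by far less than their counting intervals.

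miR-148a-5p, the other strand of that hairpin, took 0.0402% of named counts in replicate 1 (123 counts, 95% interval 0.0334 to 0.0479). Its 210 counts in replicate 2 were 0.0390% (0.0339 to 0.0447). Its mean share was 0.0396% ± 0.000791 (SD, n = 2), at ranks 66 and 67. The intervals of the libraries overlapped.

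miR-152-5p had 37 counts in replicate 2, or 0.00688% of named counts (95% interval 0.00484 to 0.00948), at rank 101 of 183 names. It was not listed in replicate 1. The files list called loci only, so this sets no upper limit on its level there. At the share of replicate 2 it would have had about 21.1 counts in replicate 1. Of the 83 names with at most 37 counts in replicate 2, 28 were not listed in replicate 1, against 4 of the 100 names with more. Absence from the smaller library was thus more common at or below that count than above it. The 32 names in replicate 2 only had a median of 5.5 counts. Absence also ran the other way, with 14 names in replicate 1 only, among them miR-16-5p with 1321 counts.

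The family as a whole had 1536 counts in replicate 1, a share of 0.501% (95% interval 0.477 to 0.527). For replicate 2 the sum was 2728 counts and the share 0.507% (0.488 to 0.526). Its mean was 0.504% ± 0.00400 (SD, n = 2), of which miR-148a-3p made up 91.5% ± 0.740. The sum adds miR-152-5p in replicate 2 only and leaves out arms that were not listed.

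**Figure D2:**
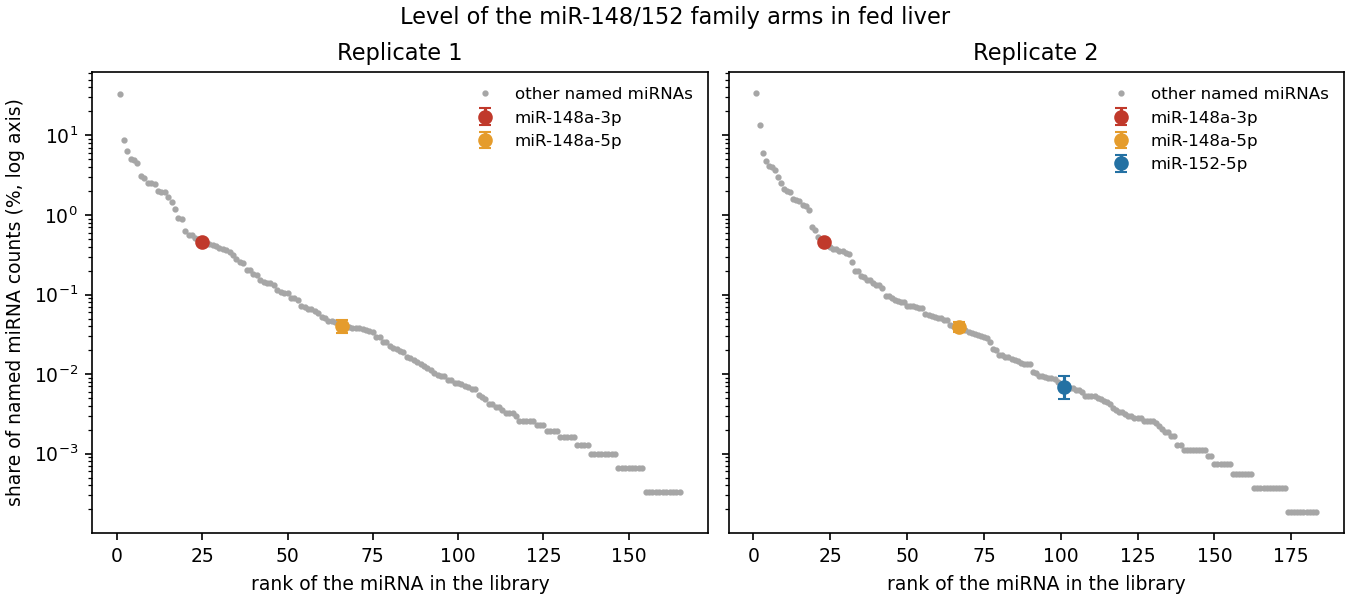
Share of named miRNA counts in % (vertical log axis) against rank in the library (horizontal axis) for replicate 1 (165 names) and replicate 2 (183 names). Grey points are other miRNAs, coloured points the family with exact 95% intervals. miR-148a-3p lies at 0.461% in both, miR-148a-5p at 0.0402% and 0.0390%, and miR-152-5p at 0.00688% in replicate 2.

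The order of the arms was the same wherever they could be compared. miR-148a-3p exceeded miR-148a-5p 11.5-fold in replicate 1 (95% interval 9.55 to 13.9) and 11.8-fold in replicate 2 (10.3 to 13.7), or 11.7-fold ± 0.231 (SD, n = 2). In replicate 1 the 2-sided exact binomial test gave an adjusted p of 6.25e-278 over the 3 pairs tested. miR-148a-5p exceeded miR-152-5p 5.68-fold in replicate 2 (3.99 to 8.28), with an adjusted p of 1.54e-30 in the same exact test. Each step in the order was larger than counting error, and the first was larger than the spread between the libraries. The last step was seen in 1 library. Folds and arm shares here are ratios of read counts of different sequences, and how well these follow amounts of RNA was not tested.

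Some miRNAs of the listing far exceeded the family. miR-22-3p, the most abundant miRNA, exceeded miR-148a-3p 72.8-fold in replicate 1 and 73.6-fold in replicate 2. miR-122-5p, the miRNA that defines hepatocytes, exceeded it 5.43-fold and 6.59-fold. By mean share over both libraries miR-148a-3p ranked 23 of the 151 miRNAs listed in both.

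The miRNAs closest to miR-148a-3p in level were compared by mean share over the 2 libraries. Directly above it stood let-7f-5p (0.511% ± 0.0803), miR-29a-3p (0.544% ± 0.0247) and miR-125b-5p (0.635% ± 0.0163). Directly below stood miR-455-3p (0.449% ± 0.0518), miR-26b-5p (0.442% ± 0.104) and let-7g-5p (0.428% ± 0.104), all SD with n = 2. The shares of let-7f-5p, miR-455-3p, miR-26b-5p and let-7g-5p lay on both sides of those of miR-148a-3p, so their order with it is not set beyond the spread. miR-29a-3p and miR-125b-5p were higher than miR-148a-3p in both libraries. Of these 7 miRNAs, miR-148a-3p had the smallest SD as a share of totals, but under TMM, which scales by the trimmed mean of the log ratios, the log2 ratios of miR-29a-3p (0.07) and let-7f-5p (-0.16) were no larger in size than its 0.16.

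**Figure D3:**
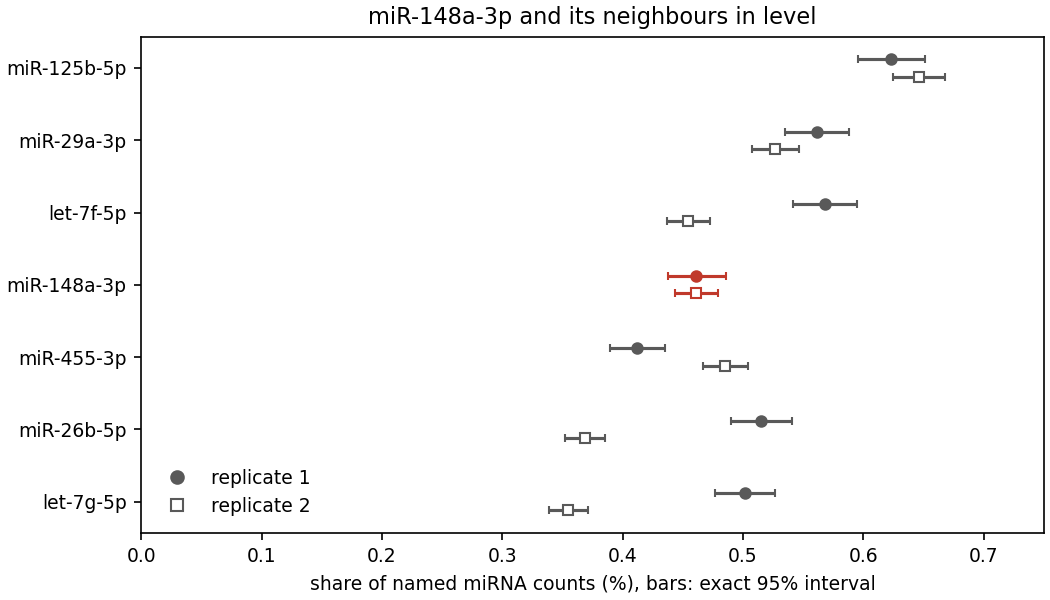
Share of named miRNA counts in % (horizontal axis) of miR-148a-3p and of the 3 miRNAs next above and next below it in mean share, in replicate 1 (filled circles) and replicate 2 (open squares), with exact 95% intervals as bars. The points of miR-148a-3p lie on each other at 0.461%, and those of let-7g-5p lie at 0.501% and 0.355%.

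The replicate libraries were then compared over all miRNAs listed in both with at least 10 counts summed. Scaling was by TMM, which sets the trimmed mean of the log ratios to 0. Of 131 miRNAs, 58 differed by more than counting error at an adjusted p under 0.05 in a 2-sided exact binomial test (44.3%), and 28 of these were higher in replicate 2 (21.4%). Of the family, 1 of 2 tested arms was called. miR-148a-3p was higher in replicate 2, with a log2 ratio of 0.16 (95% interval 0.07 to 0.26) and an adjusted p of 0.00187 in the exact test. For miR-148a-5p the log2 ratio was 0.12 (-0.21 to 0.46), with an adjusted p of 0.616 in that test. Both ratios were small beside the SD of 0.68 over all 131 miRNAs, whose median was -0.03. A share of 1 in 2 is close to the background, and the test compares these libraries only.

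The call on miR-148a-3p depended on the scaling and on the test. It held with DESeq2 size factors (log2 ratio 0.19, adjusted p 0.000325 in the exact binomial test). It also held with the other filters, with unlisted miRNAs as 0 and with a prior count of 2. When totals of named counts replaced TMM, the log2 ratio of miR-148a-3p was -0.00054, with an adjusted p of 1.0 in the exact binomial test. Its absolute value was the smallest of the 131. Under TMM it ranked 39. The scaling moved every ratio by 0.16, and with totals the median of all ratios was -0.19. With edgeR's exact test, which takes in a common spread between the libraries (biological coefficient of variation 0.229), the adjusted p of miR-148a-3p was also 1.0. That spread was estimated from these same libraries taken as 1 group, so the differences under test enter it. Few calls can come of such a test, and a missing call does not show that a miRNA was unchanged.

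Some markers of cell types were called between these libraries under TMM, where 44.3% of all 131 miRNAs tested were called. No test set the markers apart from that share. Of the hepatocyte markers, miR-122-5p was higher in replicate 2 (log2 ratio 0.44), while for miR-192-5p (-0.02) and miR-194-5p (0.01) the test was not passed. They were 4.33% of counts in replicate 1 and 4.66% in replicate 2, with 4 of 4 markers listed in either, miR-101a-3p in replicate 2 only (26 counts). The stellate and mesenchymal markers (4 of 5 listed) were 0.554% and 0.342%, with miR-145a-5p lower (-1.24). Of their other arms, miR-143-3p (0.12) and miR-214-3p (0.31) did not pass, and miR-199a-5p was in replicate 2 only (48 counts). The immune markers (1 of 5 listed) were 0.311% and 0.197%, with miR-150-5p lower (-0.50). The biliary markers (1 of 5 listed) were 0.0196% and 0.0303%, with miR-200b-3p higher (0.79). The endothelial markers (2 of 2 listed) were 0.0444% and 0.0355%, and neither arm passed. With totals in place of TMM miR-194-5p (-0.15) and miR-192-5p (-0.18) were called lower, and the calls on miR-122-5p, miR-145a-5p, miR-150-5p and miR-200b-3p kept their direction. With edgeR's exact test, which takes its spread from these same libraries, no marker was called. The erythroid markers (1 of 4) were listed in replicate 2 only, at 0.00260%, and the neural markers (1 of 3) in replicate 1 only, at 0.000979%. No muscle or pancreatic marker was listed. Their part in the difference of miR-148a-3p was not tested.

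**Figure D4:**
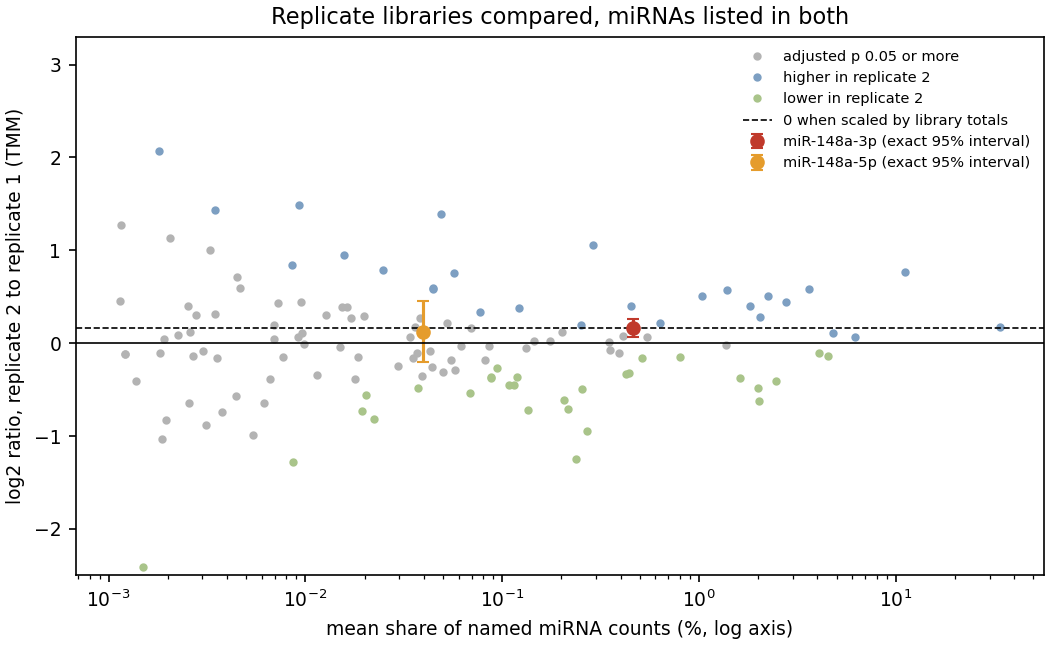
Log2 ratio of replicate 2 to replicate 1 under TMM (vertical axis) against mean share in % (horizontal log axis) for the tested miRNAs. Of the 131 tested, miR-1843a-3p (-3.72) lies below the range of the vertical axis and is not shown. The dashed line shows where a ratio of 0 lies when library totals are used, 0.16 above the solid line, and miR-148a-3p (0.16) lies on it.

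The balance of the arms does not depend on the scaling between libraries. Of the counts of Mir148a, 5p held 8.01% in replicate 1 (95% interval 6.70 to 9.48). In replicate 2 it held 7.80% (6.82 to 8.88), which gives a mean of 7.91% ± 0.144 (SD, n = 2). The 3p arm was dominant in both, as in 24 of the 47 hairpins with both arms listed and at least 20 counts in each library (51.1%). Arm shares differed between the libraries in 4 of these hairpins by Fisher's exact test at an adjusted p under 0.05 (8.51%), and Mir148a was not among them (adjusted p = 1.0 by this exact test). The odds of 5p in replicate 2 were 0.972 times those in replicate 1, with a 95% interval from 0.767 to 1.24, so a difference within these bounds could not be seen at this depth.

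By read counts, Mir148a had a larger minor arm share than most hairpins. Its 7.91% ranked 13 of 47 and was above the median of 1.29%, and in 23 hairpins the minor arm held less than 1%. With at least 100 counts in each library, it ranked 4 of 35 hairpins. Next to it in the order lay Mir151 (9.69%) and Mir126a (7.66%), named after their values were seen. Of the 24 hairpins dominated by 3p, 7 had a larger minor arm. No test was made of this rank.

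**Figure D5:**
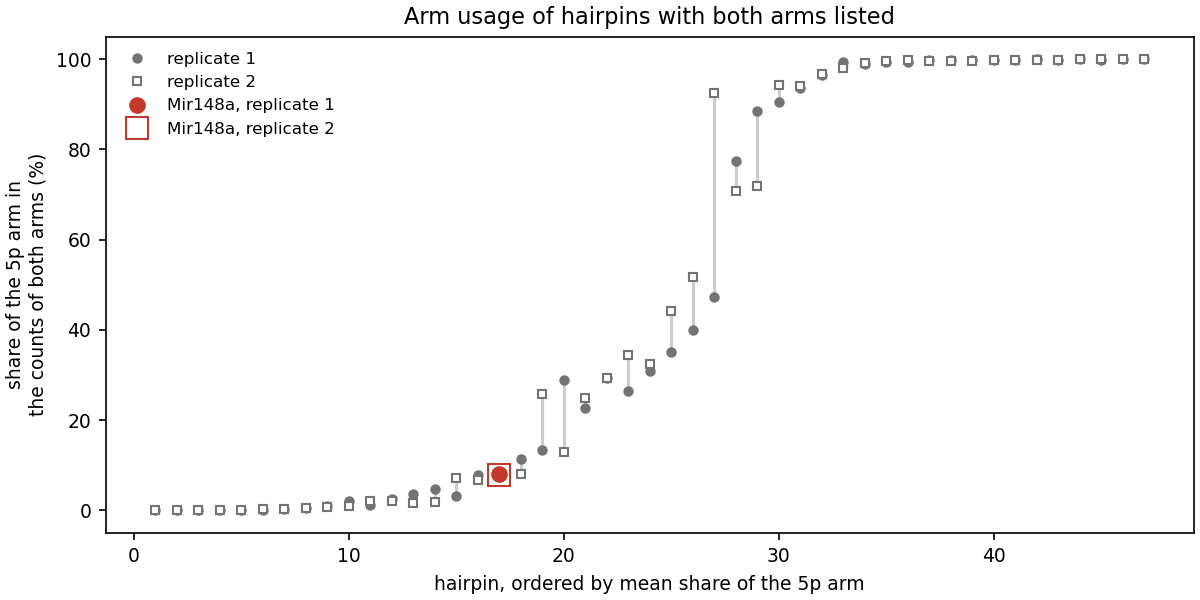
Share of the 5p arm in the counts of both arms in % (vertical axis) for 47 hairpins ordered by their mean (horizontal axis), in replicate 1 (circles) and replicate 2 (squares), joined by grey lines. Mir148a, in red, stands at 8.01% and 7.80%.

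Mir152 could not be placed on this scale, since only its 5p arm was listed. The arm listed was the one on the opposite side of the hairpin from the dominant arm of Mir148a. Listing of 1 arm was common. Of the 98 hairpins in replicate 2 for which RefSeq has both arms, 52 were listed with both, 31 with 5p alone and 15 with 3p alone. In replicate 1 the numbers were 47, 26 and 13 of 86. No locus, named or unnamed, overlapped the 3p arm of Mir152 or either arm of Mir148b in the libraries.

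Last, miR-148a-3p was set among miRNAs with related roles, in lists taken from general knowledge. Among 12 miRNAs taken as hepatocyte-enriched, a trait not tested here, 8 were listed under the names used for the list. Of these miR-148a-3p ranked the third by mean share, after miR-122-5p (2.77% ± 0.380) and miR-192-5p (1.37% ± 0.122). Just below it stood miR-455-3p and miR-194-5p (0.347% ± 0.0262), and miR-192-3p and miR-122-3p were at 0.00181% ± 0.00164 and 0.00105% ± 9.61e-05 (SD, n = 2). miR-148a-3p made up 8.87% of this list in replicate 1 and 8.22% in replicate 2. Of its 6 tested arms 4 were higher in replicate 2 under TMM and 0 lower. Of these 4, miR-192-3p was called from few reads (2 and 16) and was not called with totals (adjusted p 0.0540, exact binomial test). The median log2 ratio of the 6 was 0.28 against -0.03 over all miRNAs tested, while with totals 2 were higher and 2 lower. Over all 131 miRNAs 21.4% were higher under TMM, and with totals 19 were higher and 45 lower. These list values leave out miR-194-2-3p, the 3p arm of Mir194-2, which was not counted as a member. Under TMM that arm was called lower (log2 ratio -2.41), from few reads (8 and 2). Had it been counted, 0 lower would not hold.

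Among 12 miRNAs reported to target the DNA methyltransferases Dnmt1 or Dnmt3, 9 were listed, and miR-148a-3p ranked behind miR-29a-3p alone. It made up 36.0% of their counts in replicate 1 and 37.5% in replicate 2. miR-143-3p (0.202% ± 0.00393) and miR-342-3p (0.0391% ± 0.00981) followed (SD, n = 2). miR-126a-3p, miR-29c-3p and miR-140-5p lay between 0.00314% and 0.00186%, and miR-101a-3p and miR-29b-3p were in replicate 2 only, with 26 and 4 counts. The related arms miR-148b-3p and miR-152-3p were not listed, so the family entered this list through miR-148a-3p alone. Of 7 tested arms miR-148a-3p was the 1 called under TMM, with a median log2 ratio of 0.07, while with totals only miR-342-3p was called (lower, -0.52) and the median was -0.09. Over all miRNAs tested 44.3% were called under TMM. Without a filter 2 of 7 arms of this list were higher, against 29 of all 151 miRNAs tested. With at least 50 counts summed 3 of 4 were higher, against 29 of all 100 tested. No test set the list apart from these shares. With a prior count of 2 the median of the list was -0.01. With edgeR's exact test, which takes its spread from these same libraries, no member of either list was called.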

How the data were processed

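Small RNA from 2 liver samples of 1 group was analysed. Per the labels' protocols, RNA was extracted with Trizol and libraries were made with an Illumina TruSeq small RNA kit. Tools named in the submitters' processing notes are Bowtie 1.0.1, cutadapt 1.5 and FastQC 0.11.2, with the build GRCm38 (mm10). The name and settings of the locus caller were not given in the sources used here. Raw read counts, not normalised, were deposited by the authors for each called locus. Loci without a miRNA name (5.02% and 2.46% of counts) were left out of totals and tests. Where a name had several loci, the highest count was used. A miRNA missing from a file was treated as not listed, not as 0. File positions count from 0 and were raised by 1.

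Shares have exact Clopper-Pearson 95% intervals. With 1 group edgeR's quasi-likelihood test has no contrast, so the libraries were compared by a 2-sided exact binomial test (scipy 1.17.1) at TMM sizes (edgeR 4.0.16), with Benjamini-Hochberg adjustment over all miRNAs tested and a prior count of 0.5 in log2 ratios. The test was checked on simulated counts with known library sizes and no spread between libraries beyond counting error. That check cannot show how the test holds in these libraries, or which scaling is right. Alternatives were library totals, DESeq2 1.42.0 size factors, other filters, unlisted miRNAs as 0, edgeR's exact test, a prior count of 2, other denominators and each replicate left out. Named miRNAs are the members, the 3 neighbours in level on each side and the listed members of each list, of which 1 list is not reported here. Members and lists were chosen with earlier results of these data known.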

Additional observations from a re-analysis of the deposited data

Results flagged for a closer look

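miR-152-5p stood outside the comparison of the libraries, because it was listed in replicate 2 only. It had 37 counts there, and its level in replicate 1 is not known.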

How the results depend on the processing

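The shares of the arms depend on what they are divided by. With all listed counts in the denominator the mean share was 0.443% for miR-148a-3p, 0.0380% for miR-148a-5p and 0.484% for the family. Without miR-22-3p in the denominator it was 0.696%, 0.0598% and 0.761%, and 0.0104% for miR-152-5p. Summing all loci of a name gave 0.460% for miR-148a-3p, a move larger than its very small SD. Leaving out each replicate in turn gave 0.461% for miR-148a-3p both times, 0.0390% to 0.0402% for miR-148a-5p, 0.501% to 0.507% for the family, a 5p share of Mir148a of 7.80% to 8.01%, and ranks of its minor arm of 12 to 14. The log2 ratio of miR-148a-3p was -0.00054 with library totals, and with edgeR's exact test it was 0.16 but not called. The adjusted p of miR-148a-3p ranged from 2.71e-05 to 1.0 over the alternatives, all of them exact tests. miR-148a-5p was called under none of the 7 alternatives, with log2 ratios from -0.04 to 0.17. With edgeR's exact test, whose spread comes from these same libraries, 1 miRNA differed between the libraries. Under the other alternatives the number was 55 to 76, out of differing numbers tested. It was 55 of 100 with at least 50 counts summed, 57 of 151 without a filter and 76 of 149 with unlisted miRNAs as 0. The main setting gave 58 of 131. With totals the split was 19 higher and 45 lower, against 28 and 30 under TMM. The rank of the minor arm of Mir148a was 4 with at least 100 counts per hairpin, among 35 hairpins. For miR-152-5p no ratio could be had unless unlisted miRNAs were counted as 0, which set 0 against 37 counts (adjusted p = 6.22e-08, exact binomial test). That 0 stands in for a missing value, so this p-value cannot show a difference between the libraries. No paired analysis was possible because the series has 1 group. Of the 3 arms miR-152-5p had the fewest counts, and the total of sequenced reads was not analysed here.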
